A study of Mus musculus with 6 samples.

Results

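Kupffer cells are the macrophages that live in the sinusoids of the liver, and 9 genes that mark them were followed here in livers of mice given colorectal cancer cells: Clec4f, Vsig4, Timd4, Cd5l, Marco, Cd163, Adgre1, Folr2 and Msr1. They were taken by symbol from the deposited count table. All 9 of the 9 symbols were found among its 20140 listed genes, and all 9 were among the 16370 genes abundant enough to be tested. Bulk poly(A) RNA of whole liver was sequenced on day 21 from 6 livers, 2 in each of 3 groups. The sham livers are labelled control and received PBS, and the intra-C and intra-S livers carry the label CT26, a colorectal carcinoma line that comes from BALB/c mice. The labels do not spell out intra-C and intra-S, and the study describes 2 CT26 models, orthotopic implantation into the cecum, in which the liver at this time is premetastatic, and injection into the spleen, which seeds the liver. The labels give no strain, genotype or age, and the study's methods use BALB/c mice for the CT26 models, with sham surgery as the control. The label of every sample gives the cell type as all liver cells, so no macrophages were sorted. In such bulk tissue, fewer or more cells of a type and less or more RNA per cell cannot be told apart, and reads from CT26 cells, which have a mouse genome, cannot be told apart from reads of the host.

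Kupffer cells settle in the liver before birth and renew themselves there, and after their loss monocytes from the blood can take their place and acquire the same genes step by step. They remove particles, microbes, dying cells and old red cells from portal blood, and the genes followed here largely encode the receptors for this task. Clec4f encodes a C-type lectin found almost only on Kupffer cells, Vsig4 a receptor for particles coated with complement, and Timd4 a receptor for the phosphatidylserine of apoptotic cells that marks long-settled cells. Cd5l encodes a secreted scavenger-type protein, Marco and Msr1 are class A scavenger receptors, and Cd163 takes up hemoglobin bound to haptoglobin. Adgre1 encodes an adhesion receptor widely used as a general mouse macrophage marker, and Folr2 encodes the folate receptor of resident macrophages. Clec4f is therefore the most Kupffer-restricted of the 9, and the other members are not confined to Kupffer cells.

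Each liver had between 32838321 and 43368309 counts, and levels are given as CPM, counts scaled to the TMM-normalized total of each liver. The limit behind a count of 0 (3 counts) was 0.0679 to 0.0928 CPM, for counting error only, and no member was at 0 in any liver. The livers of a group differed by far more than sampling noise, and the intra-S livers differed most from each other. The Pearson correlation across genes of log2(TPM + 1), where TPM is the abundance scaled to transcript length and library total, was 0.992 between the sham livers, 0.986 between the intra-C livers and 0.956 between the intra-S livers (genes are not independent replicates). The results below are therefore given for each intra-S liver. Hepatocyte genes were abundant throughout, with Alb between 84369 and 156594 CPM.

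The 7 members with an entry in the promoter table were read first, because members that move together can be set beside the sequence before their starts. The stretches shown are those of Clec4f, Timd4, Cd5l and Marco, 4 members picked by hand, from RefSeq on GRCm38.p6. Each is given 5′ to 3′ on the strand of its gene and ends before the annotated start of the gene. Positions are counted from the start site of the window, which is the annotated gene start for these members except Timd4, where it lies 13 bases past it. Capitals mark the letters TCAGCA or TGCTGA (the core letters bound by MAF factors, read on either strand), GTCAGCA (the same with a further letter) and AGGTCA or TGACCT (the core letters bound by nuclear receptors).
Clec4f, chr6:83656117-83656326, minus strand: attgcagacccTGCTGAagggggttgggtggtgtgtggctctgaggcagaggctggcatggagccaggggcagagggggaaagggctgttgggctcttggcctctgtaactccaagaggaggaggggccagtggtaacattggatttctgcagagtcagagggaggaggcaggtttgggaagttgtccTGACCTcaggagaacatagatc
Timd4, chr11:46810649-46810785, plus strand: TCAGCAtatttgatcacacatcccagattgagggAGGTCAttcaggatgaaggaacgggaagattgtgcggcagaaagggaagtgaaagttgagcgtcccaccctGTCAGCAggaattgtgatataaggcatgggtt
Cd5l, chr3:87357731-87357880, plus strand: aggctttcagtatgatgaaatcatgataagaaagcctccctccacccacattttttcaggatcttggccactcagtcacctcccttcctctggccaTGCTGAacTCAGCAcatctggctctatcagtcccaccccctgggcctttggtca
Marco, chr1:120505025-120505174, minus strand: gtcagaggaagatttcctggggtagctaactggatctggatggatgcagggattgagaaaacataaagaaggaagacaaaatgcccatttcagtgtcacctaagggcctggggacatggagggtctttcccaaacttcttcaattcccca

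Clec4f, Timd4 and Cd5l each held the 6-letter MAF core before their start, and the stretch before Marco held none of the letters marked. In the whole 300-base windows of the table, from 250 bases before to 50 bases after a start, TCAGCA was found on either strand for 5 of the 7 members (Cd5l, Clec4f, Folr2, Timd4 and Vsig4), and 19.5% of all 32851 windows held it. In Vsig4 it lay 23 to 28 bases past the start, within the transcript. The 7-letter form TGCTGAC, which contains the reverse complement of the shorter one, was found for Timd4 only, 39 to 45 bases before the start site of its window, and in 4.67% of all windows. In Cd5l, TCAGCA and its reverse complement faced each other across 2 letters (TGCTGANNTCAGCA) 41 to 54 bases before the start, an arrangement that only 2 of the 32851 windows held, and which was searched for after the sequence had been seen. AGGTCA was found for Clec4f and Timd4 (16.3% of all windows) and the E-box CATGTG for Folr2, Marco and Timd4 (14.2%). GAGGAAGT (PU.1), GTGGGAA (RBPJ), TTGCNNAA (C/EBP), CACGTG (E-box) and TTCNNNGAA (STAT) were found for none of the 7, against 3.20%, 6.38%, 10.8%, 7.15% and 8.30% of all windows, also on both strands. The window of Cd163, whose stretch is not shown, held none of the letters searched for. The matches describe letters in a fixed window and are not shown to be bound.

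In the intra-C livers, 8 of the 9 members were higher than in the sham livers (edgeR's quasi-likelihood test, Benjamini-Hochberg adjusted p under 0.05 over all tested genes), and none was lower. Of all tested genes, 4.92% were called higher and 2.38% lower in this comparison. In the intra-S livers, 7 members were called higher and none lower, against 6.78% and 3.95% of all tested genes. The members not called were Folr2 in both comparisons and Timd4 in the intra-S livers. For all 9 members, both CT26-labelled livers lay above both sham livers in each comparison, an arrangement that 34.4% of all tested genes showed for intra-C and 30.4% for intra-S. The opposite arrangement, both below both, held for 34.0% and 30.0% of genes and for no member. The median log2 fold change over the 9 members was 2.51 for intra-C and 2.39 for intra-S, and the median over all tested genes was 0.010 and 0.040. Both comparisons use the same 2 sham livers.

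Every call rests on the small number of livers. Without either one of the sham livers, no gene of the table was called in either comparison, and hence 0 members. Without intra-C liver 1 or 2, Cd163 was the 1 member still called in intra-C, and 4 were still called in intra-S (Vsig4, Marco, Cd163 and Msr1). The calls over all genes fell in those fits to 0.352% and 0.323% higher in intra-C and to 2.13% and 1.97% in intra-S. Without intra-S liver 1, all 9 were called in both comparisons, and without intra-S liver 2 all 9 in intra-C and 8 in intra-S, Folr2 being the exception. The calls over all genes rose in those fits too, to 14.5% and 9.58% higher in intra-C and intra-S without intra-S liver 1, and to 14.4% and 17.3% without liver 2. With only the 2 groups compared in the fit, all 9 members were called in intra-C, where 16.3% of all genes were higher, and 3 in intra-S (Marco, Cd163 and Msr1), where 1.75% were. Without TMM scaling 5 members were called in intra-S, these 3 and Vsig4 and Cd5l. No member changed direction against sham in any of these fits.

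**Figure D1:**
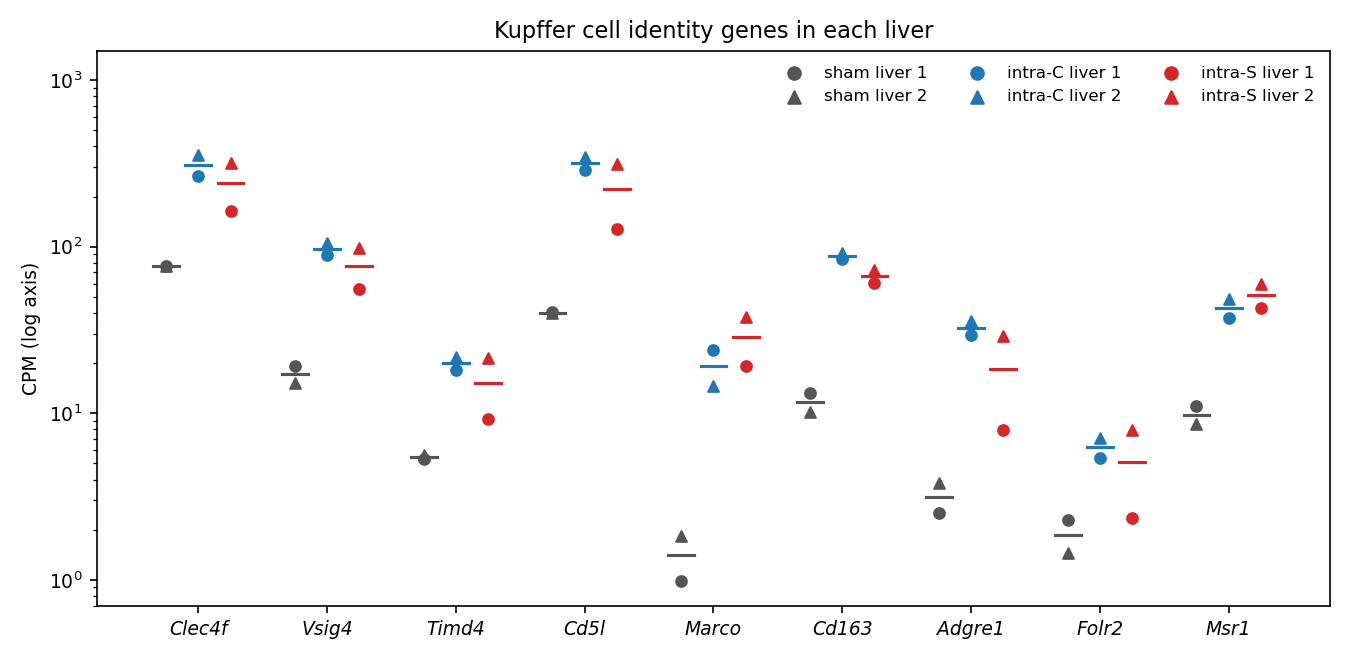
CPM (log axis) of each of the 9 genes in each liver, circles for liver 1 and triangles for liver 2 of a group, with a short line at the mean of each group. For all 9 genes the intra-C and intra-S livers lie above both sham livers, and in Folr2 the lower intra-S liver (2.36 CPM) lies just above the higher sham liver (2.29 CPM).

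Clec4f, on chromosome 6 from 83644542 to 83656116 with 7 exons, was at 76.8 CPM in both sham livers. It was at 265 and 355 CPM in the intra-C livers and at 163 and 318 CPM in the intra-S livers. The lectin gene was thus the same in sham and higher in all 4 CT26-labelled livers, with intra-S liver 1 the lowest of them. Its log2 fold change was 2.01 (SE 0.36, adjusted p = 0.0289) in intra-C and 1.64 (SE 0.35, adjusted p = 0.0360) in intra-S.

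Vsig4, the complement receptor gene on chromosome X from 96247201 to 96293438, was at 19.1 and 15.1 CPM in sham, at 88.9 and 106 CPM in the intra-C livers and at 55.9 and 98.1 CPM in the intra-S livers. Sham and CT26-labelled livers did not overlap. The log2 fold change was 2.51 (SE 0.32, adjusted p = 0.0137) in intra-C and 2.17 (SE 0.32, adjusted p = 0.0151) in intra-S.

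Timd4, the phosphatidylserine receptor gene on chromosome 11 from 46810786 to 46844333, was low in sham, at 5.30 and 5.61 CPM. It was at 18.3 and 21.8 CPM in the intra-C livers, a log2 fold change of 1.88 (SE 0.40, adjusted p = 0.0437). In the intra-S livers it was at 9.22 and 21.3 CPM, so that liver 1 was 1.69 times the sham mean and liver 2 was 3.91 times. The intra-S log2 fold change of 1.49 (SE 0.40) was not called (adjusted p = 0.0626), and with DESeq2 it was (adjusted p = 0.00832). Without TMM scaling and on log2(TPM + 1), the intra-C difference was not called either (adjusted p = 0.0715 and 0.0758).

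Cd5l, which encodes the secreted protein and lies on chromosome 3 from 87357881 to 87371074, was at 40.7 and 39.7 CPM in sham. It was at 288 and 346 CPM in the intra-C livers and at 128 and 315 CPM in the intra-S livers. The intra-C livers were thus 7.15 and 8.61 times the sham mean, and the intra-S livers 3.19 and 7.84 times. Its log2 fold change was 2.98 (SE 0.44, adjusted p = 0.0181) in intra-C and 2.46 (SE 0.43, adjusted p = 0.0218) in intra-S.

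Among the scavenger receptor genes, Marco, on chromosome 1 from 120474538 to 120505024, had the lowest mean TPM in sham and the largest fitted fold of the 9 members in both comparisons, although without intra-C liver 1 that of Adgre1 in intra-C was larger (log2 fold changes 3.51 and 3.37). It was at 0.985 and 1.83 CPM in sham, at 23.9 and 14.6 CPM in the intra-C livers and at 19.2 and 37.9 CPM in the intra-S livers. The sham livers differed 1.86-fold from each other, the widest gap of the 9 members there. The log2 fold change was 3.77 (SE 0.50, adjusted p = 0.0149) in intra-C and 4.34 (SE 0.51, adjusted p = 0.00892) in intra-S.

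Msr1, the other class A receptor gene, on chromosome 8 from 39543232 to 39642750, was at 11.0 and 8.58 CPM in sham. It was at 37.4 and 48.7 CPM in the intra-C livers and at 42.9 and 59.7 CPM in the intra-S livers. Both CT26-labelled groups were several times above sham and overlapped with each other. The log2 fold change was 2.14 (SE 0.27, adjusted p = 0.0130) in intra-C and 2.39 (SE 0.27, adjusted p = 0.00782) in intra-S.

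Cd163, the hemoglobin and haptoglobin receptor gene on chromosome 6 from 124304636 to 124330529, was at 13.3 and 10.1 CPM in sham, at 84.5 and 91.3 CPM in the intra-C livers and at 60.4 and 72.3 CPM in the intra-S livers. It was the member with the smallest standard errors, and the one whose intra-S livers were closest to each other (1.20-fold). The log2 fold change was 2.91 (SE 0.24, adjusted p = 0.00580) in intra-C and 2.50 (SE 0.23, adjusted p = 0.00578) in intra-S. Its ligand haptoglobin, encoded by Hp, also rose, from 2281 and 2343 CPM in sham to 19294 and 23987 CPM in intra-C and 17985 and 22316 CPM in intra-S.

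Adgre1, the macrophage adhesion receptor gene on chromosome 17 from 57358581 to 57483529 with 23 exons, was at 2.51 and 3.80 CPM in sham and at 29.3 and 35.9 CPM in the intra-C livers. In the intra-S livers it was at 7.90 and 29.0 CPM, and this gap of 3.67-fold was the widest of any member within a group. The log2 fold change was 3.37 (SE 0.62, adjusted p = 0.0317) in intra-C and 2.54 (SE 0.60, adjusted p = 0.0466) in intra-S. Without TMM scaling the intra-S difference was not called (adjusted p = 0.0641).

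Folr2, the folate receptor gene on chromosome 7 from 101839988 to 101857190, was the least abundant member in the CT26-labelled livers. It was at 2.29 and 1.45 CPM in sham, at 5.37 and 7.15 CPM in the intra-C livers and at 2.36 and 7.90 CPM in the intra-S livers. Intra-S liver 1 was thus 1.26 times the sham mean, whereas liver 2 was 4.22 times. Neither the log2 fold change of 1.74 in intra-C (SE 0.59, adjusted p = 0.126) nor that of 1.46 in intra-S (SE 0.59, adjusted p = 0.156) was called, although DESeq2 called the first (adjusted p = 0.0367). Exons of Folr2 overlap those of Gm10602, which had between 22 and 75 counts per liver and was at 1.85 and 1.36 CPM in sham and 0.540 to 1.14 CPM in the other 4 livers. Whether counting used strand is not given in the sources used here, so the split between these genes is uncertain.

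**Figure D2:**
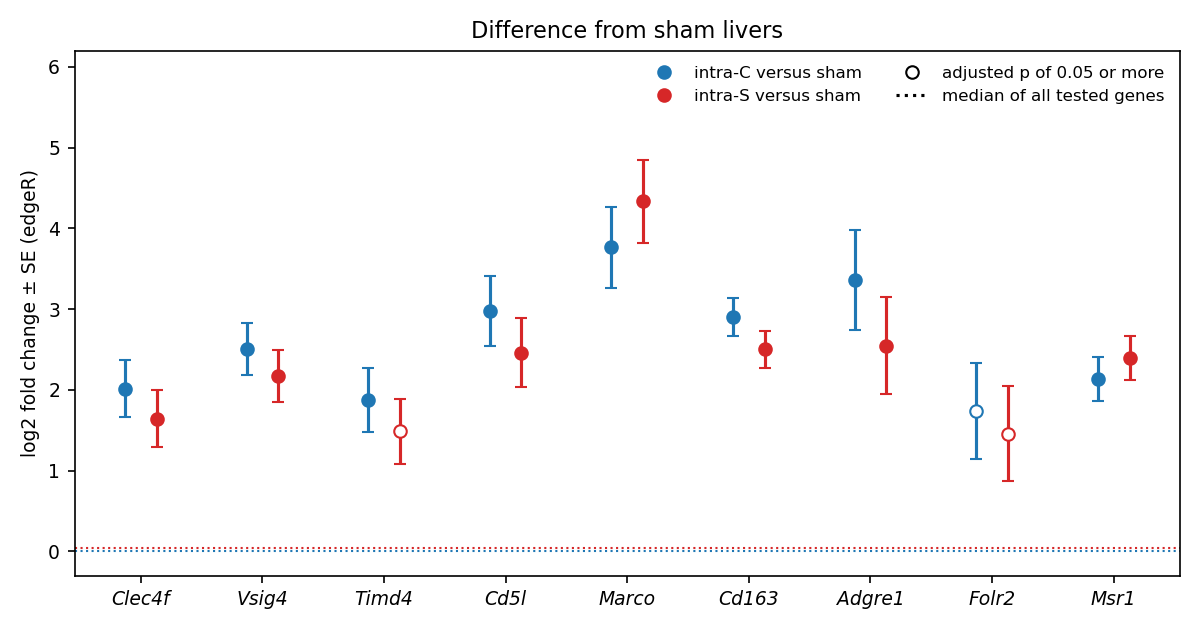
Log2 fold change against the sham livers with its standard error from edgeR for each of the 9 genes, intra-C in blue and intra-S in red, open symbols for an adjusted p of 0.05 or more, and dotted lines at the medians of all tested genes. All 18 values lie between 1.46 and 4.34, and the dotted lines lie at 0.010 and 0.040.

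The intra-S and intra-C livers were then compared with each other. No member was called by edgeR (smallest adjusted p among members 0.451, for Cd163), and 0% of all tested genes were called. At an unadjusted p under 0.05 there were 0 members among 1144 higher and 1049 lower genes, and DESeq2, which called 1.59% of the 15100 genes it gave an adjusted p higher and 1.88% lower, and limma, which called none, also called 0 members. The log2 differences, intra-S minus intra-C, ran from −0.82 for Adgre1 (SE 0.56) to 0.57 for Marco (SE 0.44), with a median of −0.37 over the members and 0.030 over all tested genes. Marco and Msr1 (0.25, SE 0.26) were the members with a value above 0. In Cd163 and Adgre1 both intra-S livers lay below both intra-C livers, an arrangement that 21.5% of all tested genes showed, and no member showed the opposite one, which 21.9% showed.

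This comparison depended on which intra-S liver was used, because 7 of the 9 members were at least 1.5 times as high in liver 2 as in liver 1, and 4 (Timd4, Cd5l, Adgre1 and Folr2) at least 2 times as high. Of the 9283 genes whose mean reached 5 CPM, 19.3% and 8.82% reached these ratios, and the median ratio was 0.985. Folr2, with a mean under 5 CPM, is counted among the members but not among these genes. The exceptions were Msr1 (1.39 times) and Cd163 (1.20 times). Intra-S liver 2 was close to the intra-C mean in Clec4f (1.02 times), Vsig4 (1.01 times), Timd4 (1.06 times) and Cd5l (0.995 times). Intra-S liver 1 was below it in 7 members, at 0.242 times in Adgre1 and 0.405 times in Cd5l, and close to it in Marco (1.00 times) and Msr1 (0.996 times).

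With intra-S liver 2 left out, 5 members were called lower than in intra-C, at log2 differences of −0.93 for Clec4f, −0.80 for Vsig4, −1.12 for Timd4, −1.31 for Cd5l and −2.05 for Adgre1, beside 9.02% of all genes tested in that fit. With intra-S liver 1 left out, the median log2 difference was 0.033 over the members and 0.0011 over all tested genes. Which liver stands for the group was not tested, and the 2 livers also differed in other genes. The summed level of the 4 erythroid genes was 1517 and 1075 CPM in intra-S livers 1 and 2 and 205 to 371 CPM in the other livers, and that of the 12 neutrophil genes was 1110 and 439 CPM. The 10 monocyte genes summed to 111 and 169 CPM in livers 1 and 2, but this sum leans on S100a4, at 0.933 and 52.8 CPM. Ccr2 was at 3.56 and 17.2 CPM, whereas Chil3 (58.6 and 10.5 CPM) and Itgam (16.2 and 15.0 CPM) were higher in liver 1. Ptprc, a leukocyte gene, was at 19.5 and 32.8 CPM. The part of these in the difference was not tested.

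**Figure D3:**
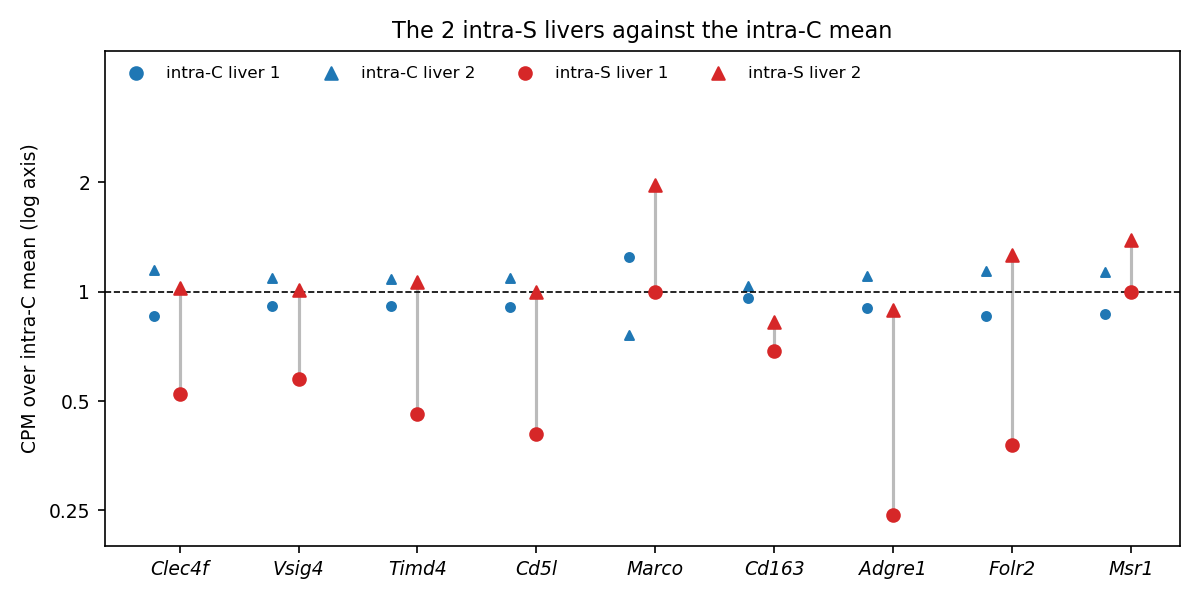
CPM of each liver divided by the mean of the 2 intra-C livers (log axis) for each of the 9 genes, red for intra-S, blue for intra-C, circles for liver 1 and triangles for liver 2, with a dashed line at 1. Intra-S liver 2 lies between 0.822 and 1.97, and intra-S liver 1 falls to 0.242 in Adgre1 while staying at the line in Marco and Msr1.

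Levels can be compared between genes in TPM, which is per transcript length. In sham Clec4f was the most abundant (72.1 and 71.8 TPM), followed by Cd5l (45.0 and 43.8 TPM) and Vsig4 (30.0 and 23.7 TPM), and these 3 did not overlap. Cd163 (6.64 and 5.04 TPM) and Timd4 (5.22 and 5.52 TPM) overlapped each other and came next. Folr2, Msr1, Adgre1 and Marco followed between 1.15 and 3.88 TPM, and each overlapped its neighbor in this order.

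In the CT26-labelled livers Cd5l led in intra-C (270 and 347 TPM) and overlapped with Clec4f (211 and 302 TPM), and the same pair led in intra-S, at 111 and 293 TPM for Cd5l and 120 and 251 TPM for Clec4f. By its mean, Marco was the last in sham, the fifth in intra-C (23.7 and 15.5 TPM) and the fourth in intra-S (17.7 and 37.3 TPM), and Folr2 was the last in both of these. Marco overlapped other members there, lying below Adgre1 (21.9 TPM) and Timd4 (19.5 TPM) in intra-C liver 2 and below Cd163 (23.7 TPM) in intra-S liver 1. The TPM of all 9 members summed to 168 and 159 in sham, 707 and 920 in the intra-C livers and 365 and 800 in the intra-S livers.

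Set against Clec4f in the same liver, Cd5l was at 62.4 and 61.0 TPM per 100 TPM of Clec4f in sham, 128 and 115 in the intra-C livers and 92.8 and 117 in the intra-S livers. Marco was at 1.60 and 2.98 per 100 in sham and between 5.12 and 14.9 in the other 4 livers. Vsig4 was at 41.6 and 33.0 per 100 in sham and between 49.9 and 57.5 in the others, and Cd163 at 9.22 and 7.02 in sham and between 12.1 and 19.7 in the others. Timd4 was between 5.95 and 7.69 per 100 in all 6 livers. Relative to Clec4f, 4 members (Vsig4, Cd5l, Marco and Cd163) were thus higher in every CT26-labelled liver than in both sham livers, as 2.68% of all tested genes were, and Timd4, Adgre1, Folr2 and Msr1 overlapped, a description with no test.

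**Figure D4:**
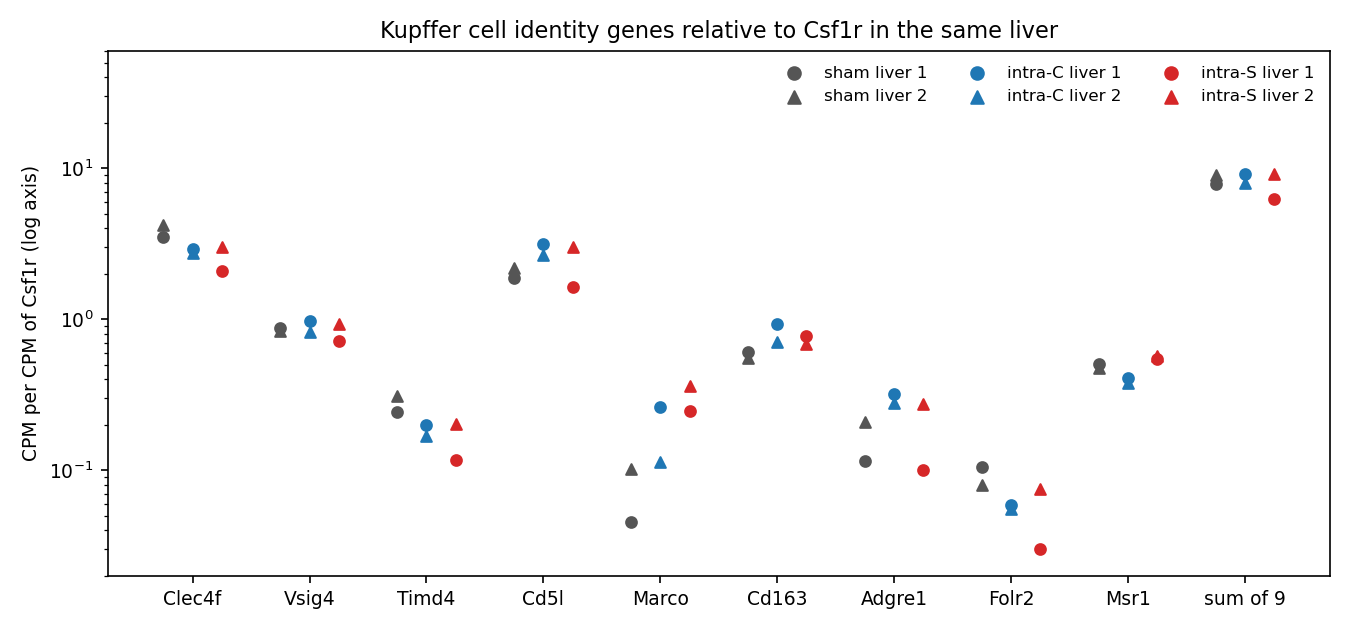
CPM of each of the 9 genes, and of their sum, divided by the CPM of Csf1r in the same liver (log axis), gray for sham, blue for intra-C and red for intra-S, circles for liver 1 and triangles for liver 2. The sum lies between 6.23 and 9.20 in all 6 livers with overlapping groups, Marco and Cd163 lie higher in the 4 CT26-labelled livers, and Clec4f, Timd4 and Folr2 lie lower.

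Csf1r encodes the receptor for the growth factor on which macrophages depend, and it serves as a common scale for macrophage transcripts. It rose from 21.8 and 18.2 CPM in sham to 91.3 and 129 CPM in intra-C (log2 fold change 2.46, SE 0.28, adjusted p = 0.00949) and to 78.4 and 105 CPM in intra-S (2.20, SE 0.28, adjusted p = 0.0100). Per CPM of Csf1r, the sum of the 9 members was 7.88 and 8.98 in sham, 9.20 and 7.95 in the intra-C livers and 6.23 and 9.12 in the intra-S livers, so the groups overlapped. On this scale Marco and Cd163 were higher in all 4 CT26-labelled livers than in both sham livers, which 1.80% of all tested genes were. Clec4f, Timd4 and Folr2 were lower in all 4, which 83.6% of all tested genes were, since Csf1r itself rose. Clec4f was at 3.52 and 4.23 per CPM of Csf1r in sham and between 2.07 and 3.02 in the others. Marco was at 0.0451 and 0.101 in sham and between 0.113 and 0.361 in the others.

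Other genes known from Kupffer cells were counted from lists. Of 12 further Kupffer-enriched genes, 9 were called higher in intra-C and 9 in intra-S, with none lower and medians of 2.01 and 1.95. Of all tested genes, 4.92% and 6.78% were called higher. The called list genes include the complement subunit genes C1qa, C1qb and C1qc, the mannose receptor gene Mrc1 and the sialoadhesin gene Siglec1. The ficolin gene Fcna, the complement gene C6, Cdh5 and Il18bp were also called. Which cells of the liver carried these transcripts was not tested. C6 rose from 6.04 and 6.41 CPM to 42.0 and 52.5 CPM in intra-C and to 28.1 and 35.0 CPM in intra-S (log2 fold changes 2.92 and 2.34). Without intra-C liver 1 or 2 in the fit, only 1 of the 12 was called in intra-C.

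Of 11 transcriptional regulators of Kupffer cells, 2 were called higher in intra-C (Maf and Spi1, which encodes PU.1) and 4 in intra-S (Maf, Spi1, Spic and Zeb2), against 4.92% and 6.78% of all tested genes, with medians of 0.16 and 0.39. At an unadjusted p under 0.05, 4 and 5 of the 11 were higher, beside 2493 and 2817 of all 16370 tested genes. Maf was at 18.2 and 16.4 CPM in sham, 38.5 and 39.6 CPM in intra-C and 47.0 and 49.5 CPM in intra-S. Spic, a regulator of red pulp macrophages and of the response to heme, was at 1.53 and 1.45 CPM in sham, 2.90 and 4.11 CPM in intra-C and 11.4 and 6.77 CPM in intra-S. Nr1h3, which encodes the liver X receptor alpha and is also expressed by hepatocytes, was at 80.1 and 82.1 CPM in sham, 67.8 and 86.5 CPM in intra-C and 37.4 and 70.0 CPM in intra-S and was not called. Without intra-C liver 1 or 2, no regulator was called in intra-C.

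Signals of the Kupffer cell niche come from stellate and endothelial cells. Of 14 ligand and receptor genes, 2 (Csf1r and Tgfb1) were called higher in each comparison and none lower, against 4.92% and 6.78% of all tested genes called higher, with medians of 0.56 and 0.50. At an unadjusted p under 0.05, 5 of the 14 were higher in each comparison and none lower. Of all 16370 tested genes, 2493 and 2817 were higher at that threshold. Tgfb1 was at 3.72 and 3.51 CPM in sham, 7.13 and 10.2 CPM in intra-C and 12.3 and 10.5 CPM in intra-S. The Csf1r ligand genes Csf1 and Il34 had log2 fold changes between −0.11 and 0.67 and were not called. Without TMM scaling 1 of the 14 was called in intra-C, and without intra-C liver 1 or 2 none was.

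Of 17 further scavenging and efferocytosis genes tested, 6 were called higher in intra-C and 4 in intra-S. Axl, a receptor for apoptotic cells, and Pros1, which encodes a bridging ligand of its family, were called in both, Mertk, Gas6 and Stab1 in intra-C, and Stab2 in intra-S. Scara5, a ferritin scavenger receptor gene, had no counts in sham liver 1 and 0.407 CPM in sham liver 2, and 29.5 and 36.7 CPM in intra-C and 39.5 and 16.6 CPM in intra-S. With sham and intra-S alone in the fit none of the 17 was called in intra-S, and without intra-C liver 1 or 2 none was in intra-C.

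For heme and iron recycling, Hp, Hpx (hemopexin) and Slc11a1 were called higher in both comparisons, Hmox1 (heme oxygenase) in intra-S, and Ftl1 (ferritin light chain) lower in intra-C, out of 10 genes. Hmox1 was at 11.9 and 11.7 CPM in sham, 72.0 and 56.4 CPM in intra-C and 189 and 54.6 CPM in intra-S. Its edgeR adjusted p was 0.0503 in intra-C, just past the threshold, and 0.0210 in intra-S. Ftl1 was at 3326 and 3132 CPM in sham, 1564 and 1234 CPM in intra-C and 2516 and 1872 CPM in intra-S.

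**Figure D5:**
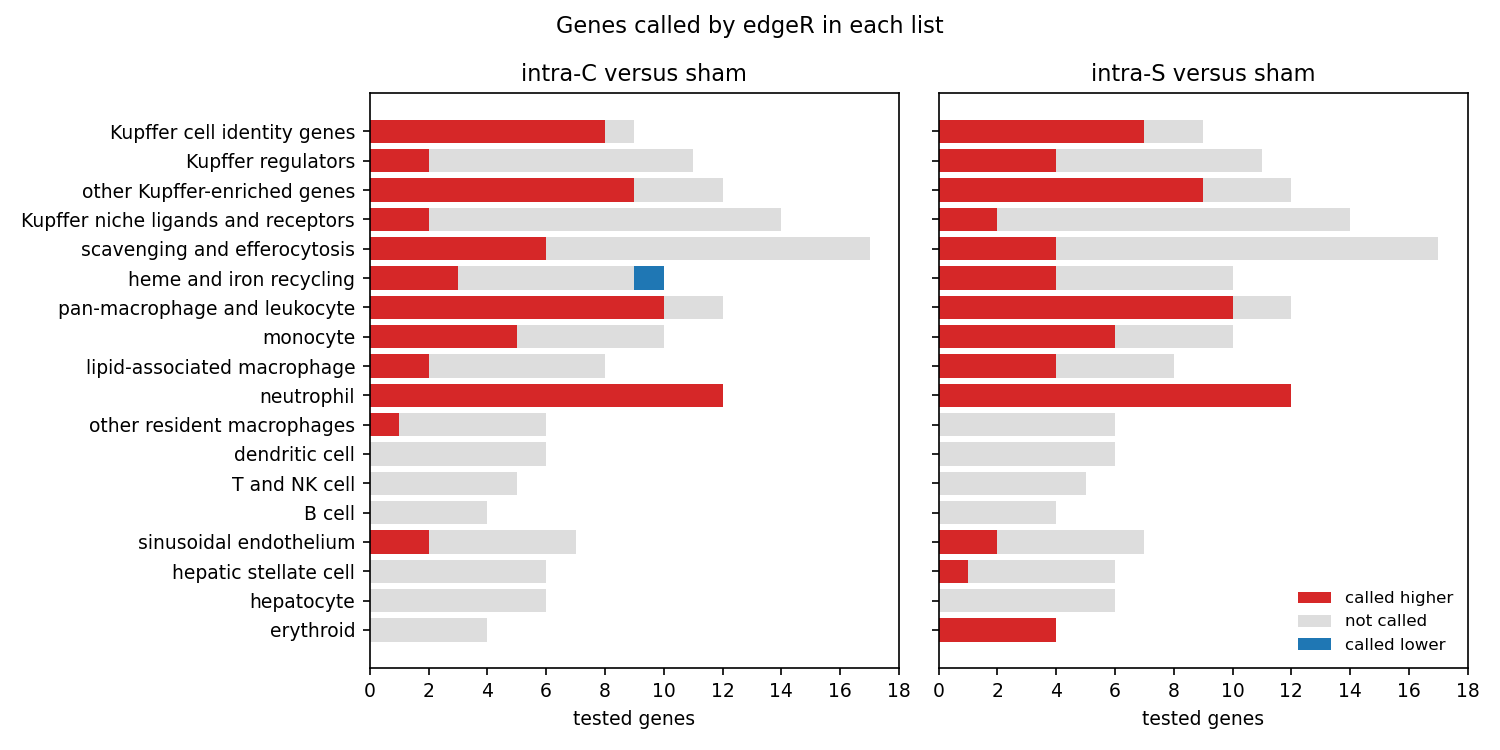
Number of tested genes in each list that edgeR called higher (red), lower (blue) or not at all (gray) against sham, intra-C on the left and intra-S on the right. The bars of the 9 Kupffer cell identity genes (8 and 7 called), of the 12 further Kupffer-enriched genes (9 and 9), of the 12 pan-macrophage genes (10 and 10) and of the 12 neutrophil genes (12 and 12) are mostly red, and those of dendritic, T and NK, B and hepatocyte genes are gray throughout.

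Markers of other cells of the myeloid lineage were counted in the same livers. Of 12 pan-macrophage and leukocyte genes, 10 were called higher in each comparison, among them Cd68, Lyz2, Cd14 and Ptprc, and their summed level was 87.2 and 87.6 CPM in sham, 408 and 555 CPM in intra-C and 439 and 531 CPM in intra-S. Of 10 monocyte genes, 5 and 6 were called higher, and they summed to 9.29 and 11.6 CPM in sham and 57.3 to 169 CPM in the other livers. Among the defining ones, Ccr2 was at 1.36 and 1.29 CPM in sham, 5.78 and 11.7 CPM in intra-C and 3.56 and 17.2 CPM in intra-S (adjusted p = 0.0824 and 0.0571), and no monocyte marker was at 0 in both sham livers. All 12 neutrophil genes were called higher in both comparisons, from a sum of 3.87 and 5.12 CPM in sham to 297 and 653 CPM in intra-C and 1110 and 439 CPM in intra-S, and Camp, Mpo and Elane had no counts in sham. Of 8 genes of lipid-associated macrophages, 2 and 4 were called higher, among them Trem2 and Lgals3 in both. Without intra-C liver 1 and without liver 2, the calls in intra-C numbered 3 and 2 for the pan-macrophage list, 2 and 2 for the monocyte list and 7 and 5 for the neutrophil list. The part of these cells in the levels of the members was not tested, and none of the 9 members is among these lists.

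Markers of macrophages of other tissues, dendritic cells, lymphocytes and the other liver cells were counted in the same way. For scale, 2493 of all 16370 tested genes were higher and 1935 lower in intra-C at an unadjusted p under 0.05. In intra-S these numbers were 2817 and 2132. Of 6 genes of macrophages of other tissues, Prg4, also a hepatocyte gene, was called higher in intra-C, and 0 were in intra-S (3 at an unadjusted p under 0.05, and 3 by DESeq2). Of 6 dendritic cell genes, 5 tested T and NK cell genes and 4 B cell genes, 0 were called by edgeR in either comparison. At an unadjusted p under 0.05 there were 2 dendritic genes higher and 2 B cell genes lower in intra-C and 1 T and NK cell gene higher in intra-S, and DESeq2 called 1 dendritic gene in intra-C and 1 T and NK cell gene in intra-S. Of 7 sinusoidal endothelial genes 2 were called higher in each, Dnase1l3 and Kdr in intra-C and Stab2 and Lyve1 in intra-S, while at an unadjusted p under 0.05 all 7 were higher in intra-C and 5 in intra-S. Of 6 stellate cell genes, 1 (Rgs5) was called in intra-S, and 0 in intra-C, where 1 was lower at an unadjusted p under 0.05 and by DESeq2. Of 6 hepatocyte genes 0 were called, with 2 higher and 1 lower in intra-C and 1 higher in intra-S at an unadjusted p under 0.05, while DESeq2 called 1 higher and 1 lower in intra-C and 0 in intra-S.

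For each member the 3 genes of nearest profile were sought among the 9283 genes with a mean of at least 5 CPM, by the root mean square difference of log2 CPM centered on its mean over the 6 livers. Other members were among the nearest for Clec4f and Timd4, which named each other (0.125), and for Adgre1, whose nearest gene was Cd5l (0.315). The nearest gene of Clec4f was Adgre5, which encodes a leukocyte adhesion receptor (0.104), and that of Vsig4 was Siglece, which encodes a sialic acid receptor of myeloid cells (0.116). Msr1 was nearest to C1qb (0.133), Ly86 (0.134) and Cd53 (0.136). Cd5l was nearest to Osmr (0.183), and Folr2 to Pik3cd (0.215).

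The 3 nearest genes of Cd163 encode secreted hepatocyte proteins of the acute phase: Lbp, for the lipopolysaccharide-binding protein (0.138), and the fibrinogen chain genes Fga (0.144) and Fgb (0.156). Lbp was at 78.5 and 73.5 CPM in sham, 479 and 536 CPM in intra-C and 403 and 399 CPM in intra-S. Neither Lbp nor Cd163 was called between intra-C and intra-S, where 0% of all tested genes were. Marco had the least close neighbors, with Ccl6, a chemokine gene of myeloid cells, as the first (0.325). All of these profiles share the same 6 livers, which fall into sham and CT26-labelled ones.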

How the data were processed

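The 6 libraries were made from whole-liver poly(A) RNA. Reads were aligned by the authors to mm10 (HISAT2 2.1.0), and uniquely mapped exon reads were counted with featureCounts (Subread 2.0.6). The deposited raw counts were used for all tests, and the TPM that the authors deposited were used for levels between genes. The annotation and the strand setting are not given in the sources used here. The members, the gene lists and the tests were chosen with earlier results of these data known, so no list is independent support. The 17 lists were written by hand.

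Here edgeR 4.0.16 (R 4.3.3) was fitted once over all 6 livers, with TMM scaling, filterByExpr (count minimum 10), the quasi-likelihood test and Benjamini-Hochberg adjustment over 16370 genes. A gene was called at an adjusted p under 0.05. CPM use the TMM-scaled totals. A prior count of 2 was added for log2 profiles. With 2 livers per group the smallest two-sided p of an exact permutation test is 0.333, so none was run, and since no label says that the livers come from separate animals, p-values measure only the spread between these samples. Alternatives were DESeq2 1.42.0, limma 3.58.1 on log2(TPM + 1) and log2(TPM + 0.1), other filters, scalings and sample sets, and each liver left out. All members are named, as are list genes that were called (otherwise the most abundant) and the 3 nearest genes of each member. Csf1, Il34, Ccr2, S100a4, Nr1h3 and Gm10602 were added after their values were seen. Promoter sequences were from RefSeq (GRCm38.p6). Gene positions and exon numbers came from RefSeq and GENCODE annotation of the same build. The procedure was tested on simulated data.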

Additional observations from a re-analysis of the deposited data

How the results depend on the processing

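Over the 17 alternatives, all 153 values of the members against sham stayed above 0 in each comparison, from 1.32 to 4.28 in intra-C and from 0.34 to 4.85 in intra-S on the log2 scale. The lowest was Folr2 without intra-S liver 2. Without TMM the median of all genes shifted to −0.25 and −0.23, and the medians of the members were 2.25 and 2.13. Members called in intra-C numbered 8 in the main analysis, 9 with DESeq2 (10.4% of all genes higher and 6.78% lower), 9 with only the groups compared (16.3% and 14.2%) and 7 without TMM (3.48% and 4.89%) and with limma (3.04% to 3.60% and 5.44% to 5.47%), so without TMM and with limma more genes were called lower than higher, and 0 to 9 with 1 liver left out. Members called in intra-S numbered 7, 8 with DESeq2 (12.6% of all genes higher and 8.95% lower), 5 without TMM (5.12% and 6.81%) and with limma (4.18% to 4.91% and 9.02% to 9.49%), 3 with only the groups compared (1.75% and 0.734%; Marco, Cd163 and Msr1), and 0 to 9 with 1 liver left out. With a liver left out, the lone liver of its group is assumed to vary like the other groups, and the cause of the lost or gained calls was not tested. Between intra-S and intra-C, 0 members were called and 0 to 5 with 1 liver left out, the 5 without intra-S liver 2, where 7.53% of all genes were higher and 9.02% lower. Without intra-S liver 1 and without liver 2, respectively, the log2 difference was 0.033 and −0.93 for Clec4f, 0.010 and −0.80 for Vsig4, 0.089 and −1.12 for Timd4, 0.34 and −1.41 for Folr2, 0.97 and −0.0047 for Marco and 0.47 and −0.0071 for Msr1, so the sign turned with 1 of these livers in each of the 6. The cause was not tested.

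The replicate numbers did not pair the livers. The correlation of same-numbered deviations was −0.032, 0.083 and 0.043, and with the replicate block 8, 7 and 0 members were called. With 2 livers per group the spread is poorly known, and the lowest members, Folr2 and Marco, had at most 2.29 CPM in a sham liver.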
